A study of Mus musculus with 2 samples.

Results

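The Ces2 carboxylesterases of the mouse are a family of serine hydrolases whose genes lie side by side on chromosome 8. The members described here are Ces2a, Ces2b, Ces2c, Ces2e and Ces2g, chosen by gene symbol. All 5 have a row among the 15526 genes of the table. Liver RNA was sequenced in 2 libraries, 1 from mice given acetoaceto-o-toluidide (AAOT) and 1 from untreated mice. AAOT is an anilide, in which o-toluidine is linked to an acetoacetyl group through an amide bond.

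The AAOT library was made from mixed RNA of 3 female NOG-TKm30 mice of 22 weeks of age that received 0.3% AAOT for 4 weeks. The control library was made from 3 mice of the same sex, genotype and age that received 0% AAOT over the same 4 weeks. The route of AAOT is not named in the sources used here. All mice carry the cDNA of HSVtk mutant clone 30, a viral thymidine kinase driven by the enhancer and promoter of the mouse transthyretin gene, which is active in hepatocytes. NOG mice are severely immunodeficient, and the labels also name C57BL as the strain background, which is left as it stands. Reads assigned to the genes of the table summed to 16528533 in the AAOT pool and 18801241 in the control pool. Each group is a single library, so the spread between mice is unknown and no p-value is given.

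Carboxylesterases sit in the lumen of the endoplasmic reticulum and cut esters and amides with a catalytic serine. Enzymes of the Ces2 group prefer substrates with a small acyl part and a bulky alcohol or amine part, and they activate several ester prodrugs in liver and intestine. In mice, Ces2a and Ces2c also hydrolyse acylglycerols. Several carboxylesterase genes of mouse liver are known to respond to the xenobiotic receptors PXR and CAR.

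The genes share an ancestor, and their coding sequences remain close. In the 10 pairs of members the coding sequences were between 81.6% identical, for Ces2a and Ces2g, and 92.1% identical, for Ces2b and Ces2c. Coding lengths ran from 1671 bases in Ces2b to 1686 bases in Ces2c. The promoter windows of 4 of the 5 members, printed below, had lower percentages of identity. They were aligned all together and the coding sequences in pairs, so the percentages are unlike measures. Each window covers 250 bases before and 50 bases from a transcription start, from RefSeq on GRCm38.p6. For Ces2a, Ces2c and Ces2e this start is the first base of the gene as given here. For Ces2g it is base 104961718, which lies 122 bases inside the gene. The sequences are printed because these neighbouring genes differed in their ratio between the pools. Capitals mark runs of 5 or more bases that are identical in all 4 after alignment.
Ces2a promoter, chr8:104733753-104734052, + strand: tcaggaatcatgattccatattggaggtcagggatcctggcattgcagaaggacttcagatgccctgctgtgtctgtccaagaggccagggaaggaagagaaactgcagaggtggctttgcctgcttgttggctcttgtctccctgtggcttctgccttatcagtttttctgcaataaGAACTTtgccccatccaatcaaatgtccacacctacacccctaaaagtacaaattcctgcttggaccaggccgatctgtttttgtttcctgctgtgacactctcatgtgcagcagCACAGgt
Ces2c promoter, chr8:104846818-104847117, + strand: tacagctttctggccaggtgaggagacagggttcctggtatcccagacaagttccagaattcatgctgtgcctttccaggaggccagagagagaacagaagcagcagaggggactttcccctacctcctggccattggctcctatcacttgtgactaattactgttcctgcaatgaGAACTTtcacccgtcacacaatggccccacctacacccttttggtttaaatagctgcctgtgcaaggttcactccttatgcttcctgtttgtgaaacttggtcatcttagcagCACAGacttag
Ces2e promoter, chr8:104926010-104926309, + strand: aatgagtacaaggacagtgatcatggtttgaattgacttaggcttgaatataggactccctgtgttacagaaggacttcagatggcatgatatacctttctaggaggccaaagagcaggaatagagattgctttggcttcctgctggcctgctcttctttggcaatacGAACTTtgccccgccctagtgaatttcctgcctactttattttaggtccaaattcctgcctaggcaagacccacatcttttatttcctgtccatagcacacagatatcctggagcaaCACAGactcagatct
Ces2g promoter, chr8:104961468-104961767, + strand: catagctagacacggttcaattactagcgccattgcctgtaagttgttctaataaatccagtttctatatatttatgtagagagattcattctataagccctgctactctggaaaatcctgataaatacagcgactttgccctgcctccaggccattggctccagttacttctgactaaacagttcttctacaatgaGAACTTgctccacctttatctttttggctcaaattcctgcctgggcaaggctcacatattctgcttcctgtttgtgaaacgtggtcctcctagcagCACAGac

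The 4 windows were 51.1% to 65.9% identical in pairs, lowest for Ces2a with Ces2g and highest for Ces2c with Ces2g. They shared 2 runs, GAACTT and CACAG. The run GAACTT begins at position -72 in Ces2a, -74 in Ces2c, -82 in Ces2e and -53 in Ces2g, where 0 is the transcription start of the window. In Ces2a and Ces2e it is part of the longer word CAAAGTTC on the opposite strand, which stood in 1.04% of all 32851 promoter windows. That word was chosen after the sequences were read. The nuclear receptor half-site AGGTCA was searched on both strands and was found once, in Ces2a at position -226. It stood in 16.3% of all windows. The paired forms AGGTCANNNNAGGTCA, AGTTCANNNNAGTTCA and AGGTCANNNAGGTCA, which contain the half-sites, were in 0 of the 4 windows and in 0.0152%, 0.0122% and 0.00609% of all windows. The half-site variant AGTTCA (14.0% of all windows), the HNF4A word CAAAGTCCA (0.475%), the antioxidant response word TGACNNNGC (12.4%), the AhR word GCGTG (32.4%) and the TATA box word TATAAA (13.6%) were in 0 of the 4. The word CCAAT was present in Ces2a, Ces2c and Ces2g and not in Ces2e, against 37.4% of all windows. A match or its absence describes these letters in this window only.

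Ces2a held the most reads of the family, and its level was higher in the AAOT pool. Ces2a (chromosome 8, 104734003 to 104741634, GRCm38), an esterase and acylglycerol hydrolase of mouse liver, was at 923 CPM (counts per unit of library size, as the authors scaled them) in the AAOT pool and 480.1 CPM in the control pool. These values rest on 15450 reads in the AAOT pool and 8916 reads in the control pool. The ratio of AAOT over control was 1.92, with an exact 95% interval of 1.87 to 1.97 that covers counting error only. By CPM, which is not corrected for length, Ces2a ranked 119 of 15526 genes in the AAOT pool and 255 in the control pool.

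Ces2c had the highest ratio of the family. Ces2c (chromosome 8, 104847068 to 104854483), which in mice hydrolyses acylglycerols, was at 42.4 CPM in the AAOT pool and 10.6 CPM in the control pool. It had 710 reads in the AAOT pool and 196 reads in the control pool. Its ratio was 4.02 (3.43 to 4.73), and it ranked 9 from the highest among the 7761 genes with a mean of at least 10 CPM over both pools. The next genes below it in that order were Abcc4 and Sult2a5, at log2 ratios of 1.83 and 1.82 against 1.91 for Ces2c.

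Ces2e and Ces2g were higher by small ratios. Ces2e (chromosome 8, 104926260 to 104934672), another liver carboxylesterase, was at 307 CPM in the AAOT pool and 238 CPM in the control pool. It had 5131 reads in the AAOT pool and 4426 reads in the control pool. Its ratio was 1.29 (1.24 to 1.34). Ces2g (chromosome 8, 104961596 to 104969537) was at 80.0 CPM in the AAOT pool and 60.5 CPM in the control pool. It had 1338 reads in the AAOT pool and 1124 reads in the control pool. Its ratio was 1.32 (1.22 to 1.43). The counting intervals of these 4 ratios all lie above 1.

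Ces2b (chromosome 8, 104828494 to 104840093) was barely read, with 3 reads in the AAOT pool and 1 read in the control pool. No ratio is given for it, because both counts lie at or under the 3 reads that a count of 0 allows. Other rows of the Ces2 cluster were also low. The pseudogene Ces2d-ps had 24 reads in the AAOT pool and 11 reads in the control pool, a ratio of 2.42 (1.14 to 5.48). Ces2h had 6 reads in each pool. Ces2f has no row in the table.

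**Figure D1:**
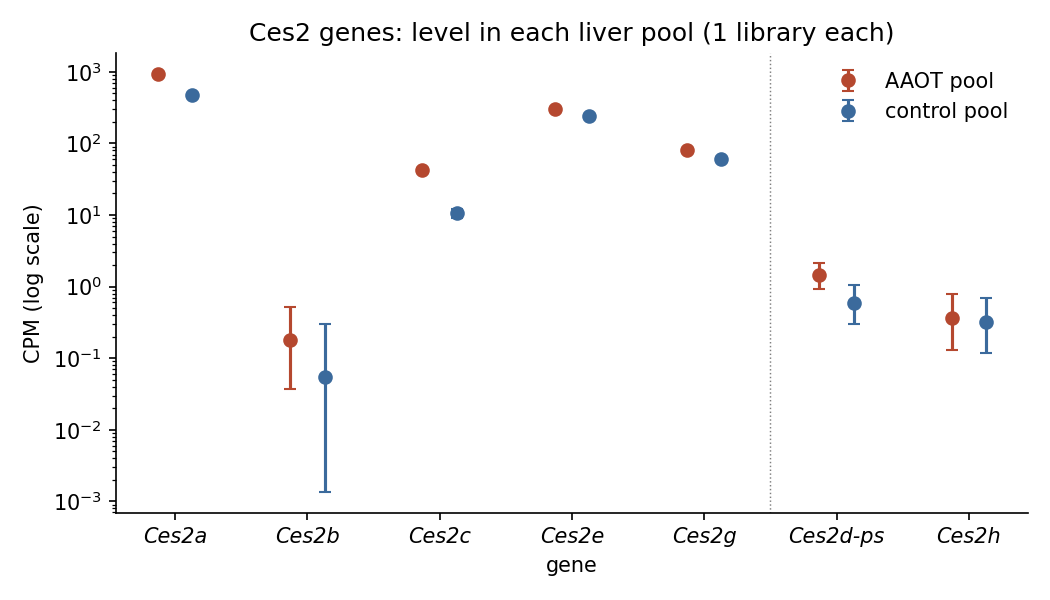
Level of each Ces2 gene in CPM (log axis), with the AAOT pool in red and the control pool in blue; each point is 1 library and bars are exact 95% Poisson intervals of the read count. Right of the dotted line are 2 Ces2 genes that are not members. Ces2a, Ces2c, Ces2e and Ces2g lie higher in the AAOT pool beyond their bars, whereas the bars of Ces2b (3 reads and 1 read) overlap.

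Compared per length, the order of the members was the same in both pools. Values were divided by the length of the longest protein-coding GENCODE transcript. In the AAOT pool Ces2a stood at 471 CPM per kb, Ces2e at 114, Ces2g at 27.97, Ces2c at 21.5 and Ces2b at 0.0526. In the control pool Ces2a stood at 245 CPM per kb, Ces2e at 88.3, Ces2g at 21.2, Ces2c at 5.36 and Ces2b at 0.0158. The closest neighbours above the lowest levels were Ces2g and Ces2c in the AAOT pool, with intervals of 26.5 to 29.5 and 19.98 to 23.2 CPM per kb, which do not overlap. Per length, Ces2c in the AAOT pool was thus still below Ces2g in that pool, in spite of its larger ratio.

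Summed over the family, Ces2 transcripts reached 1352 CPM in the AAOT pool and 789.6 CPM in the control pool. This is a ratio of 1.71 (1.68 to 1.75). Without Ces2a the sum was 429 CPM in the AAOT pool and 309 CPM in the control pool, a ratio of 1.39 (1.34 to 1.44). In bulk liver, more cells of a type and more RNA per cell cannot be told apart.

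The make-up of the family differed between the pools. Ces2a took 68.3% of Ces2 reads in the AAOT pool (exact binomial 95% interval 67.7 to 68.9) and 60.8% in the control pool (60.01 to 61.6). Ces2c took 3.14% in the AAOT pool (2.91 to 3.37) and 1.34% in the control pool (1.16 to 1.54). Both shares were larger in the AAOT pool. Ces2e took 22.7% in the AAOT pool (22.1 to 23.2) and 30.2% in the control pool (29.4 to 30.9). Ces2g took 5.91% in the AAOT pool (5.61 to 6.23) and 7.67% in the control pool (7.24 to 8.11). Their shares were smaller in the AAOT pool although their levels were higher.

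**Figure D2:**
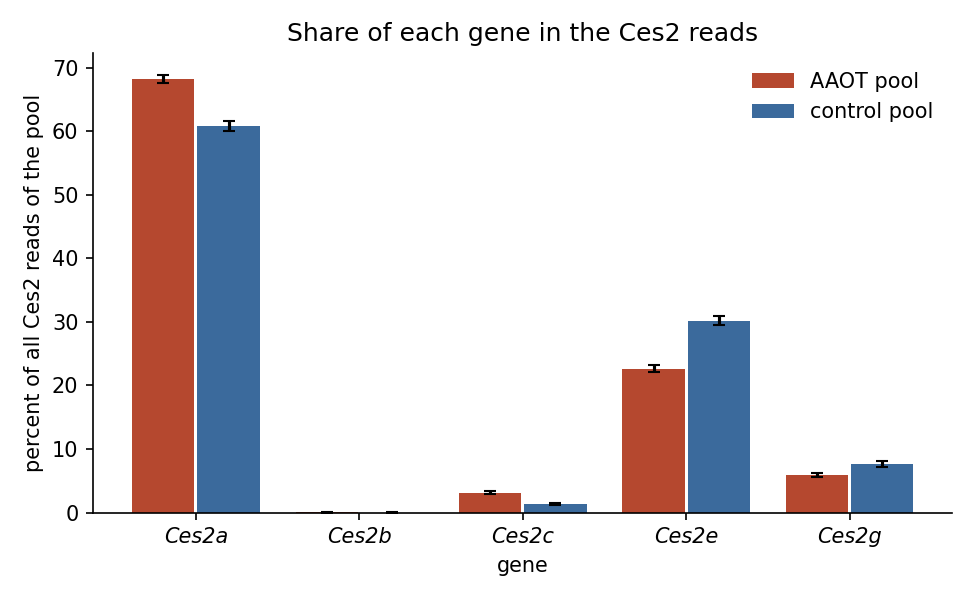
Percent of all Ces2 reads that each member took, with the AAOT pool in red and the control pool in blue; bars are 1 library each and error bars are exact 95% binomial intervals. Ces2a and Ces2c take larger shares in the AAOT pool (68.3% and 3.14%), and Ces2e and Ces2g take smaller ones (22.7% and 5.91%).

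Because members of 1 library share its scaling, ratios between members do not depend on how the libraries were scaled. The level of Ces2a relative to Ces2e was 3.01 in the AAOT pool and 2.01 in the control pool. The quotient of these values was 1.49, with a 95% counting interval of 1.42 to 1.57. Ces2c relative to Ces2a stood at 0.0460 in the AAOT pool and 0.0220 in the control pool, a quotient of 2.09 (1.78 to 2.45). Ces2c relative to Ces2e gave a quotient of 3.12 (2.65 to 3.68). Only for Ces2g and Ces2e, among the 6 pairs of the 4 members above 10 CPM, did the interval include 1. Their quotient was 1.03 (0.94 to 1.12). Beyond counting error, Ces2c had the highest ratio, Ces2a came next, and Ces2e and Ces2g lay below both. The split of reads between similar copies, described below, is not covered by these intervals.

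Against all genes, 1 of the 4 members with a mean of at least 10 CPM passed 2-fold upward in the AAOT pool, and 0 passed it downward. The counted quantity is log2((AAOT + 1)/(control + 1)) in CPM. Of the 7761 genes counted, 60, or 0.773%, were at least 2-fold higher and 33, or 0.425%, were at least 2-fold lower. The member past this size was Ces2c, at a log2 ratio of 1.91. Ces2a lay just under it, at 0.94. Ces2g stood at 0.40 and Ces2e at 0.36. At 1.5-fold, Ces2a and Ces2c were counted as higher, beside 2.07% of all genes. The median log2 ratio of the 4 members was 0.67, and that of all 7761 genes was -0.02.

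**Figure D3:**
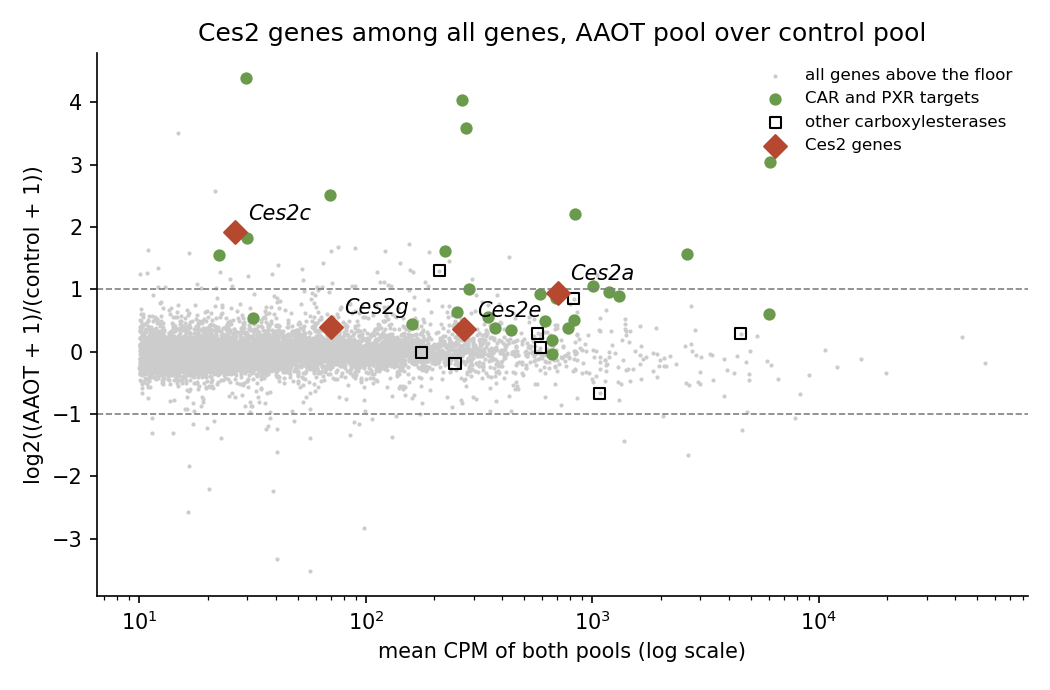
log2 ratio of the AAOT pool over the control pool against the mean CPM of both pools (log axis) for the 7761 genes above 10 CPM, each point 1 gene; dashed lines mark 2-fold. The 4 Ces2 members drawn (diamonds) lie above 0, with Ces2c at 1.91 and Ces2a at 0.94. Of the CAR and PXR targets (green), 27 of 28 lie above 0, and of all 7761 genes 3604 do.

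Reads of Ces2c and Ces2a could be split between copies during counting. Only 57.8% of the 50-base stretches of the longest Ces2c transcript occur in no other GENCODE gene, and 38.2% of them also occur in Ces2d-ps. Ces2d-ps itself held 24 reads in the AAOT pool and 11 reads in the control pool, against 710 reads in the AAOT pool and 196 reads in the control pool for Ces2c. For Ces2a 77.8% of stretches were unique, and 20.9% were shared with the pseudogene Gm7208. Among genes that have a row in the table, 97.9% of Ces2a stretches were unique, and 59.8% of those of Ces2c. Ces2e and Ces2g were better separated, with 96.6% and 96.0% unique stretches, and Ces2b had 90.4%. The part of shared reads in the ratios was not tested.

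The cluster from Ces2a to Ces2h spans 286 kb and holds 17 annotated genes, of which 7 are protein coding. The genes with a row in the table are 7 Ces2 genes, which include the pseudogene Ces2d-ps and leave out the protein-coding Ces2f. Beyond its right end lies Ces3a (chromosome 8, 105048576 to 105061928), another carboxylesterase expressed in liver. Ces3a was at 830.1 CPM in the AAOT pool and 1321 CPM in the control pool, 1.59-fold lower with AAOT (1.56 to 1.62). Ces3b, the next gene, was at 231 CPM in the AAOT pool and 264 CPM in the control pool, 1.15-fold lower (1.10 to 1.20). Ratios above 1 and below 1 thus stood within one array of related genes. Of 8 other genes above 10 CPM within 300 kb of the cluster, 0 were at least 2-fold higher or lower. Their log2 ratios ran from -0.33 to 0.31, a description made after the values were seen. Of all 7761 genes, 0.773% were at least 2-fold higher and 0.425% lower.

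**Figure D4:**
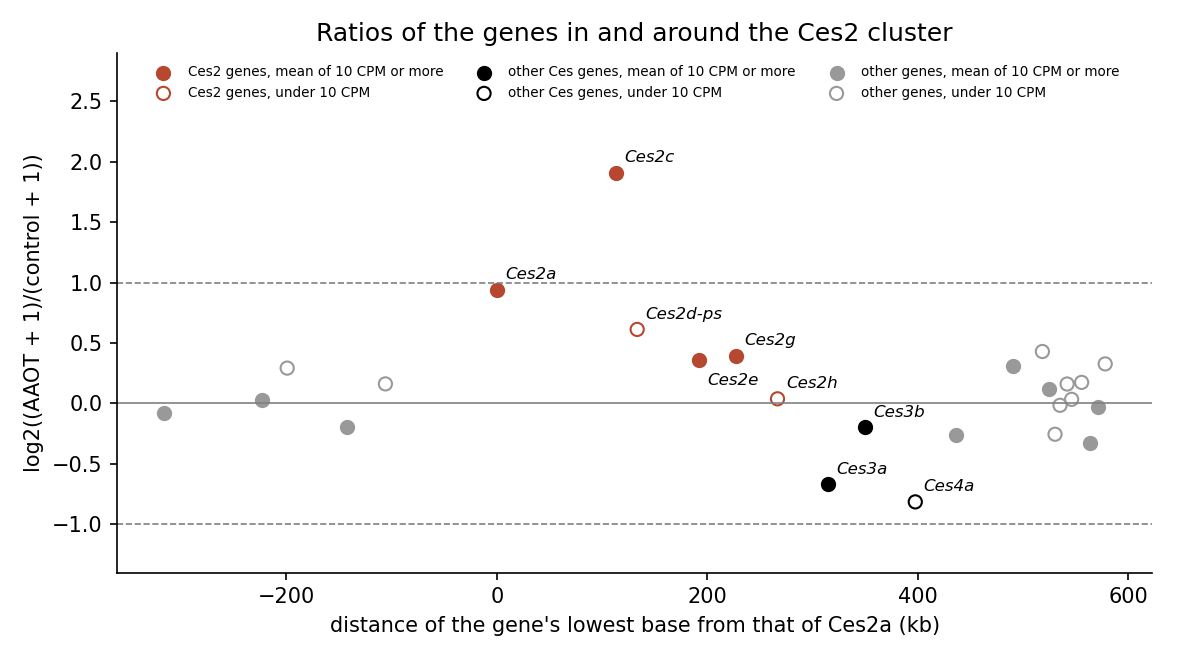
log2 ratio of the AAOT pool over the control pool for genes in and around the Ces2 cluster, against the distance in kb of each gene's lowest base from that of Ces2a; filled points have a mean of at least 10 CPM, open points less, and genes with 3 reads or fewer in both pools are left out. The Ces2 genes (red) lie above 0, although Ces2h, with 6 reads in each pool, is only at 0.04. Their neighbours Ces3a, Ces3b and Ces4a (black) lie below 0. Ces4a rests on 2 reads in the AAOT pool and 18 reads in the control pool.

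Of the other carboxylesterases, 8 of 15 symbols had a mean of at least 10 CPM, with 1 at least 2-fold higher, 0 lower and a median log2 ratio of 0.17. The higher gene was Ces1g, a carboxylesterase and lipid hydrolase, at 299.98 CPM in the AAOT pool and 122 CPM in the control pool, a ratio of 2.46 (2.34 to 2.59). Ces1d, a triacylglycerol hydrolase, was at 1063 CPM in the AAOT pool and 590.04 CPM in the control pool, a ratio of 1.80 (1.76 to 1.85). Ces1b had a ratio of 1.23 (1.19 to 1.26). Of the 8 genes, 5 lay above 0 and 3 below, and Ces3a and Ces3b, described above, were among the latter. Over all 7761 genes, 0.773% were at least 2-fold higher, 0.425% were lower and the median log2 ratio was -0.02.

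Hydrolases outside the carboxylesterase family had a median close to that of all genes. Of 22 above 10 CPM, 0 were at least 2-fold higher and 0 lower, 13 lay above 0, and the median log2 ratio was 0.03. Among all 7761 genes, 0.773% were higher, 0.425% were lower, 3604 lay above 0 and the median was -0.02. The counts of 0 are thus near the shares over all genes. The kynurenine formamidase gene Afmid was at 148 CPM in the AAOT pool and 109 CPM in the control pool, a ratio of 1.37 (1.29 to 1.45). The microsomal epoxide hydrolase gene Ephx1 had a ratio of 1.34 (1.31 to 1.38), and the hormone-sensitive lipase gene Lipe 1.33 (1.09 to 1.62). The cholesterol ester hydrolase gene Nceh1 had a ratio of 0.78 (0.72 to 0.85). The arylacetamide deacetylase gene Aadac, whose product also cuts aromatic amides and a gene picked out after the values were seen, was at 189 CPM in the AAOT pool and 178 CPM in the control pool. The lipid droplet lipase gene Pnpla3, picked out in the same way, lay just under the limit on mean level, at 10.9 CPM in the AAOT pool and 2.37 CPM in the control pool. Its ratio was 4.59 (3.29 to 6.53).

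Targets of CAR and PXR other than Ces2 genes, a list chosen with earlier results of these data known, were mostly higher. Their log2 ratios ran from -0.05 to 4.39 among targets above 10 CPM. This wide range held all 4 Ces2 members above 10 CPM and does not set Ces2a and Ces2c apart. Of 28 targets above 10 CPM, 11, or 39.3%, were at least 2-fold higher, 0 were lower, 27 lay above 0 and the median log2 ratio was 0.91. Over all 7761 genes, 0.773% were at least 2-fold higher, 0.425% were lower and 3604 lay above 0. The 4 targets farthest from no change, Cyp2c55, Cyp2b10, Gstm3 and Cyp2c29, had log2 ratios of 4.39, 4.03, 3.58 and 3.03. They are 3 cytochrome P450 genes and 1 glutathione transferase gene. The receptor and factor genes themselves stood closer together. Nr1i2, which encodes PXR, was at 67.5 CPM in the AAOT pool and 56.1 CPM in the control pool, a ratio of 1.20 (1.11 to 1.31). Nr1i3, which encodes CAR, was at 109 CPM in the AAOT pool and 133 CPM in the control pool, a ratio of 0.82 (0.77 to 0.87). Ahr, the aryl hydrocarbon receptor gene, had a ratio of 1.15 (1.07 to 1.22). Of the 8 genes of this list, 0 were at least 2-fold higher or lower.

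The genes nearest to a member in level in both pools were drawn from all 15526 genes, by the Euclidean distance of log2(CPM + 1) over the 2 libraries. Nearest to Ces2a were Cyp2c54 at a distance of 0.06, Sult3a1 at 0.32 and Cyp1a2 at 0.35. Cyp2c54 was at 890.1 CPM in the AAOT pool and 490.5 CPM in the control pool. Nearest to Ces2c were Sult2a5 at 0.07, Abcc4 at 0.27 and Gsta2 at 0.32. Sult2a5 was at 41.8 CPM in the AAOT pool and 11.1 CPM in the control pool. With 2 libraries, such a likeness says only that level and ratio were alike.

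The liver label was checked against cell markers. All 6 hepatocyte markers were above 10 CPM and summed to 65526 CPM in the AAOT pool and 74482 CPM in the control pool. Most of this sum is Alb, at 50830 CPM in the AAOT pool and 57688 CPM in the control pool. Of the 6, 2 had a log2 ratio above 0 and 4 below. Their ratios ran from 0.61 for Apoa1 to 1.20 for Cps1. Ces2 genes are also expressed in intestine. Of 7 enterocyte markers, 4 (Lct, Sis, Cdx2 and Alpi) have no row. The other 3 summed to 206 CPM in the AAOT pool and 249 CPM in the control pool, nearly all of it from Apoa4 and Fabp2, which liver also expresses. The third, Vil1, had 23 reads in the AAOT pool and 19 reads in the control pool. Markers of cholangiocytes summed to 35.3 CPM in the AAOT pool and 44.8 CPM in the control pool, and those of stellate cells to 195 CPM in the AAOT pool and 237 CPM in the control pool. Kupffer cell markers summed to 264 CPM in the AAOT pool and 249 CPM in the control pool, and sinusoidal endothelial markers to 256 CPM in the AAOT pool and 258 CPM in the control pool. Pancreas markers summed to 6.27 CPM in the AAOT pool and 11.8 CPM in the control pool, and kidney markers to 0.418 CPM in the AAOT pool and 0.754 CPM in the control pool. The part of other cell types in the Ces2 ratios was not tested.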

How the data were processed

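The authors deposited 1 table of CPM values per gene symbol, with 1 column per library. Per the labels, total RNA was depleted of ribosomal RNA and made into directional libraries. Tools named in the submitters' processing notes are Bowtie2, RSEM, edgeR and Trimmomatic 0.38, with the build mm10 and no role for each; no annotation is named there. The deposited CPM carry a scaling factor per library, of 1.01 in the AAOT pool and 0.988 in the control pool. All values (100%) were whole multiples of 1 step per column, within a relative tolerance of 1e-06, which gave the reads. No count model was run, since each group has 1 library of 3 mixed mice.

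Intervals of ratios are exact (Clopper-Pearson, conditional on the sum of reads). Intervals of quotients between members come from the log odds ratio. Both treat reads as independent molecules and cover counting error only. Genes were counted as higher or lower at 2-fold on log2((AAOT + 1)/(control + 1)), among genes with a mean of at least 10 CPM.

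The members, lists and rules were chosen with earlier results of these data known. Named genes are all Ces2 genes, up to 4 per list farthest from 0, the receptors, genes next to the cluster and the 3 genes nearest in level to Ces2a and Ces2c; others are named as chosen after their values were seen. A gene that this rule takes is not reported here. Symbols, positions and promoters are from RefSeq, and transcripts from GENCODE, both on GRCm38, the assembly of mm10. Promoters were aligned with MAFFT 7.526. The steps were tested on simulated reads. Scripts used biopython 1.88, scipy 1.17.1, pandas 2.3.3, numpy 2.4.6 and matplotlib 3.10.9 under Python 3.11.15. Alternatives were 5 other scalings, constants of 0.1 and 5 CPM, floors of 1 and 50 CPM and none, and sizes of 1.5-fold and 4-fold.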

Additional observations from a re-analysis of the deposited data

How the results depend on the processing

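No paired analysis was possible because each group has 1 library. The ratios of the 4 members above 10 CPM kept their direction under all 5 other scalings and both other constants. Ces2a stayed under 2-fold under all 7, between 0.91 and 0.99 on the log2 scale; the highest was with the total taken without the ribosomal precursor Rn45s. Ces2c fell to 1.61 with 5 CPM added, since the constant shrinks ratios of low genes. The summed family ratio, 0.78 (log2), was 0.81 without the authors' factors, 0.74 by upper quartile and 0.82 without Rn45s. The count of Ces2 members at least 2-fold higher, 1, was 0 with a floor of 50 CPM, which leaves Ces2c out, 2 at a size of 1.5-fold and 0 at 4-fold. Over all genes, those higher numbered 37 with a floor of 50 CPM, 94 with none, 161 at 1.5-fold and 8 at 4-fold. Those lower numbered 55 with a floor of 1 CPM, 15 with 50 CPM, 60 with none, 108 at 1.5-fold and 6 at 4-fold. Other carboxylesterases counted as higher were 2 at 1.5-fold and 0 at 4-fold. Among other hydrolases it was 1 with a floor of 1 CPM or none, against 0. CAR and PXR targets numbered 18 at 1.5-fold and 6 at 4-fold. The remaining 103 of 126 values moved by less than their counting interval or, for counts, by at most 1.5 times. Depth limits Ces2b, with 3 reads in the AAOT pool and 1 read in the control pool, and the spread between mice is unknown.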
